A study of Mus musculus with 6 samples.

Results

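Transcripts of 9 genes of enamel formation were followed on 6 Affymetrix mouse expression arrays of dental pulp, 3 labelled Ring1 deletion and 3 labelled control. The genes are Amelx, Ambn, Enam, Mmp20, Klk4, Amtn, Odam, Slc24a4 and Tuft1, and every probe set annotated with one of these symbols was taken, 11 of the 45101 probe sets. The deletion mice were labelled Ring1a-/-;Ring1b cko/cko ;CreERT2 and were given 4-hydroxytamoxifen, 40 mg/kg, on postnatal days 9 and 13. Control animals were labelled Ring1a-/-;Ring1b flox/flox ;CreERT2 and were given corn oil on those days, so both groups lack Ring1a, carry CreERT2 and differ in drug and Ring1b deletion together. Pulp was taken at day 17, and the promoter that drives CreERT2 and any pooling of animals are not given in the sources used here. Ring1a and Ring1b are ubiquitin ligases of Polycomb repressive complex 1, and the series title places the work in the passage of mesenchymal stem cells to transit amplifying cells in the mouse incisor. The labels call the arrays of a group biological replicates without naming animals, and p-values rest on the scatter among these samples alone.

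Enamel is laid down by ameloblasts, the innermost epithelial cells of the tooth, which face the odontoblasts of the pulp. In the secretory stage they release a matrix of amelogenin, ameloblastin and enamelin that the protease MMP20 trims. In the maturation stage the protease KLK4 clears what remains of the matrix, amelotin and ODAM line the cell surface, and transporters bring calcium to the growing crystals. Because a rodent incisor keeps growing, it holds all these stages at once.

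The labelled tissue is pulp, yet markers of dental epithelium were detected on every array. Krt14, a keratin of basal epithelial cells, had signals of 4539.7, 11082 and 22631 on deletion replicates 1, 2 and 3, and 6560.1, 9749 and 12972 on control replicates 1, 2 and 3. Cdh1, Epcam and Trp63 were likewise called Present on all 6 arrays, Present being the detection call that MAS5 gives to a probe set. Dspp, the dentin matrix gene of odontoblasts, had signals of 31975 to 45677 on the deletion arrays and 32784 to 40999 on the control arrays. In RNA from a whole tissue, fewer cells of a type and less RNA per cell cannot be told apart.

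Some features of single arrays bear on all values that follow. The probe set used for Rnf2, the gene of Ring1b, had signals of 3165, 3549.6 and 2831 in deletion and 2693, 2439.6 and 2233 in control. It was thus not lower in deletion (limma adjusted p = 0.33), and since where this probe set lies relative to the deleted part is not known here, it does not check the labels. Control replicate 1 had a 3' to 5' signal ratio of 3.08 for the Gapdh control probe sets and deletion replicate 1 had 1.31, against 0.808 to 0.865 on the other 4 arrays. For the Actb control probe sets the ratio was 6.47 on control replicate 1 and 3.69 on deletion replicate 1, against 1.83 to 1.97 on the other 4. Xist, transcribed from the inactive X chromosome of females, had signals of 12745, 143 and 123 in deletion and 26808, 17360 and 145 in control. The Y-linked gene Eif2s3y had 1061, 2637 and 2379 in deletion and 5.8, 21.1 and 2138 in control, and so was high on all 3 deletion arrays but only on control replicate 3. Deletion replicate 1 was high for both genes. The part of these features in the results below was not tested.

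No enamel gene passed the test between the groups, and the smallest p-values belonged to the pair of matrix proteases, whose differences had opposite signs. Of the 9 genes, 8 had a detected probe set and were tested, and all 8 were Present on all 6 arrays. With limma (Benjamini-Hochberg adjustment over 12250 genes, threshold 0.05) 0 of 8 changed, against 2.65% of all genes tested (1.89% higher and 0.759% lower in deletion). At an unadjusted p under 0.05 there were 2 of 8, Mmp20 and Klk4, against 15.2% of all genes. Once the fit also held the replicate number, as a block, Mmp20 fell and Klk4 rose, 2 of 8, against 10.6% of all genes (6.44% higher and 4.19% lower). That block assumes a pairing of same-numbered arrays that the labels do not state. When every kept probe set was fitted in place of 1 per gene, none of the enamel probe sets passed, against 1.54% of all probe sets. The median log2 difference over all genes was 0.02.

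**Figure D1:**
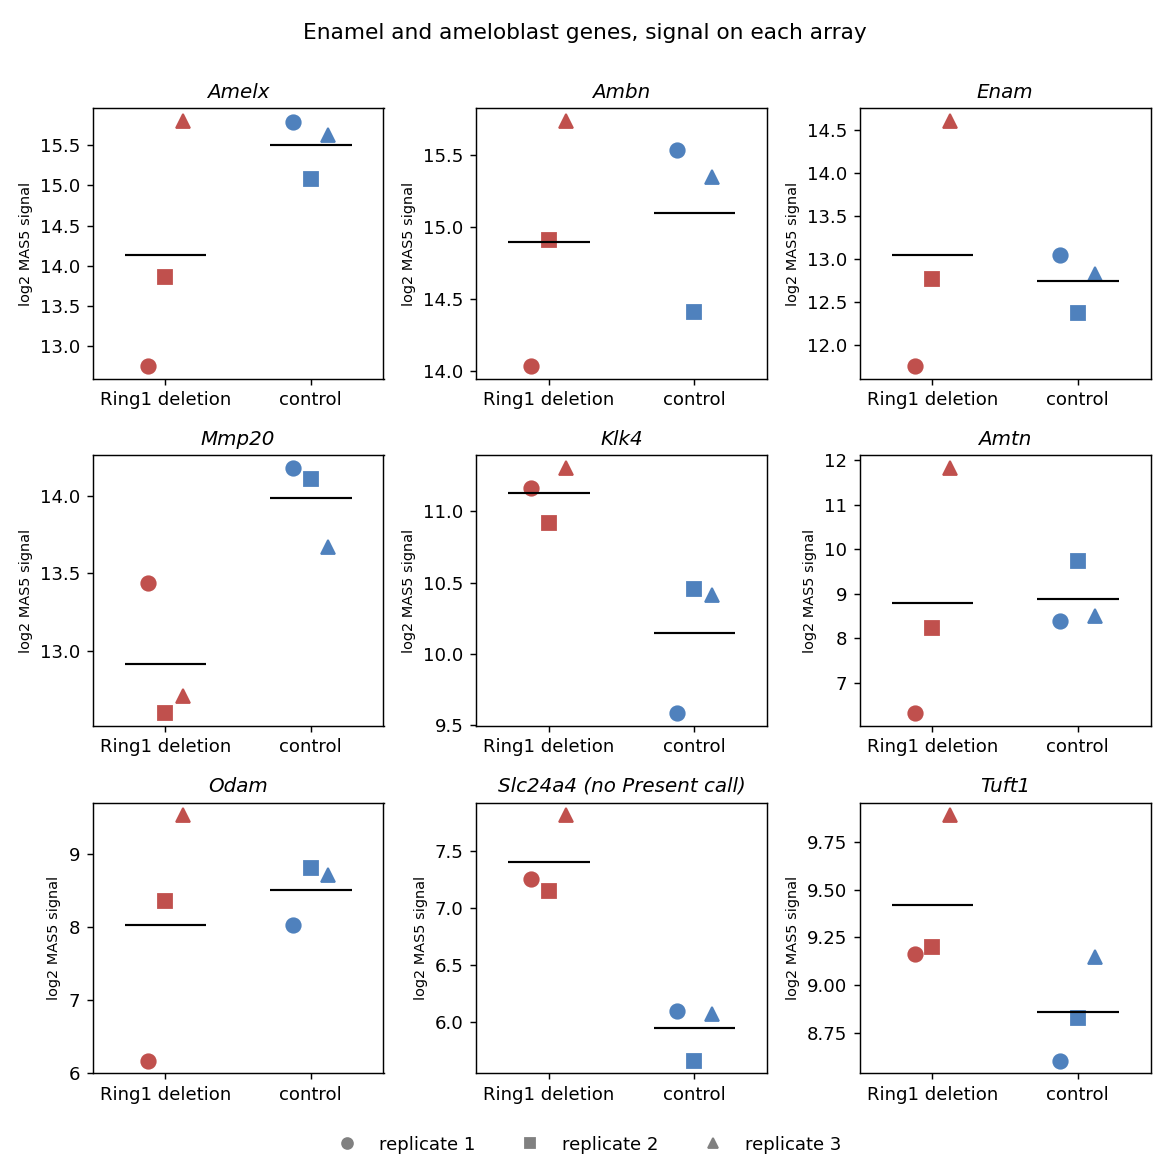
Log2 MAS5 signal (vertical axes, each gene on its own scale) of the 9 genes on the 3 Ring1 deletion arrays (red, left) and the 3 control arrays (blue, right). Symbols mark the replicate number and the horizontal lines are group means. Mmp20 lies lower and Klk4 higher on all 3 deletion arrays, while Amelx, Enam, Amtn and Odam spread widely between the deletion arrays.

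Amelx encodes amelogenin, the main protein of the secretory enamel matrix. Its signal was 6866, 14848 and 57357 on deletion replicates 1, 2 and 3, and 56632, 34635 and 50557 on control replicates 1, 2 and 3. Replicates 1 and 2 of the deletion group lay below every control array, and replicate 3 lay above all of them. The group means were 14.14 ± 1.55 in deletion and 15.50 ± 0.37 in control on the log2 scale (SD, n = 3 each). The difference was -1.36 ± 0.62 (SE; limma adjusted p = 0.349, or 0.0815 blocked by replicate). Single arrays moved this value strongly. Without deletion replicate 3 it was -2.20 (limma adjusted p = 0.031), the only setting in which it passed. Without deletion replicate 1 it was -0.67 (0.604), without both replicate 1 arrays -0.52 (0.688) and with array quality weights -0.78 (0.367). The second Amelx probe set, one of the class that can share sequence with other transcripts, followed closely with 6146, 14511 and 52526 in deletion and 45572, 31883 and 43253 in control. Signals of Amelx on deletion replicate 3 and on control replicates 1 and 3 were 81.9% to 84.3% of the highest signal on the array, and any loss of range near the top of the scale was not tested.

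Ambn encodes ameloblastin, a matrix protein that ameloblasts secrete beside amelogenin. Its signal was 16767, 30786 and 54529 in deletion and 47381, 21779 and 41589 in control, so the control range lay within the deletion range. The log2 difference was -0.20 ± 0.42 (SE; limma adjusted p = 0.893).

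Enam encodes enamelin, the largest protein of the matrix. It had 3455, 6994.5 and 24953 in deletion and 8459, 5299 and 7235 in control. Deletion replicate 3 was more than any control array, and deletion replicate 1 less than any. The log2 difference was 0.30 ± 0.58 (SE; limma adjusted p = 0.883). A second Enam probe set was Present on 2 deletion arrays and 1 control array only, with signals of 39.1 or less everywhere.

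Mmp20 encodes enamelysin, the metalloprotease that cleaves amelogenin during secretion. It had 11096, 6178 and 6681 in deletion and 18619, 17695 and 13057 in control. Every deletion array was below every control array. On the log2 scale the means were 12.91 ± 0.46 in deletion and 13.99 ± 0.28 in control (SD, n = 3 each), a difference of -1.08 ± 0.25 (SE), or 0.474 times the control signal. It missed the threshold on group alone (limma adjusted p = 0.0583), and passed when blocked by replicate (0.00293) or with array quality weights (-1.26, adjusted p = 0.00295). It also passed without deletion replicate 1, at -1.34 (limma adjusted p = 0.0164), and without both replicate 1 arrays, at -1.24 (limma adjusted p = 0.0108). With each array left out in turn it ranged over -1.34 to -0.92, with limma adjusted p of 0.0164 to 0.224. Within the 3 same-numbered pairs the difference was -0.75, -1.52 and -0.97.

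Among the maturation genes, Klk4 encodes kallikrein 4, the serine protease that degrades the matrix before the crystals thicken. It had 2299.9, 1931 and 2533 in deletion and 766, 1405 and 1359.8 in control. Every deletion array was above every control array. The means were 11.13 ± 0.20 in deletion and 10.15 ± 0.49 in control on the log2 scale (SD, n = 3 each), a difference of 0.98 ± 0.25 (SE), or 1.97-fold. It missed the threshold on group alone (limma adjusted p = 0.082), and passed when blocked by replicate (0.0114) or with array quality weights (0.73, adjusted p = 0.0391). With each array left out in turn it ranged over 0.70 to 1.13 and did not pass (limma adjusted p of 0.106 to 0.233). Within the same-numbered pairs it was 1.59, 0.46 and 0.90.

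Amtn encodes amelotin, a protein of the layer between maturation ameloblasts and enamel. It had 79.1, 299.8 and 3639 in deletion and 336, 849 and 359 in control. The deletion arrays spanned the control range and went far beyond it at both ends. The log2 difference was -0.08 ± 1.11 (SE; limma adjusted p = 0.988).

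Odam encodes odontogenic ameloblast-associated protein, found in the same layer. It had 71.8, 329 and 744 in deletion and 260.5, 449 and 418 in control. Again deletion replicate 1 was lowest and deletion replicate 3 highest of all 6 arrays. The log2 difference was -0.49 ± 0.70 (SE; limma adjusted p = 0.827).

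Slc24a4 encodes a potassium-dependent sodium and calcium exchanger of maturation ameloblasts. Its only probe set had no Present call in either group, so it was not tested and no fold is given. The signals of 152, 141 and 225 in deletion and 68.5, 50.6 and 67.1 in control did not overlap, but all lay at levels that MAS5 did not call detected.

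Tuft1 encodes tuftelin, an acidic protein first described in enamel and now known from many tissues. It had 574, 588 and 949 in deletion and 389.8, 455 and 566 in control. The groups did not overlap, though the lowest deletion array and the highest control array nearly met. The log2 difference was 0.56 ± 0.25 (SE; limma adjusted p = 0.341, or 0.0624 blocked by replicate). Of the 8 genes tested, 3 had groups that did not overlap, Klk4 and Tuft1 higher and Mmp20 lower, against 20.8% of all genes tested (12.2% higher and 8.64% lower).

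**Figure D2:**
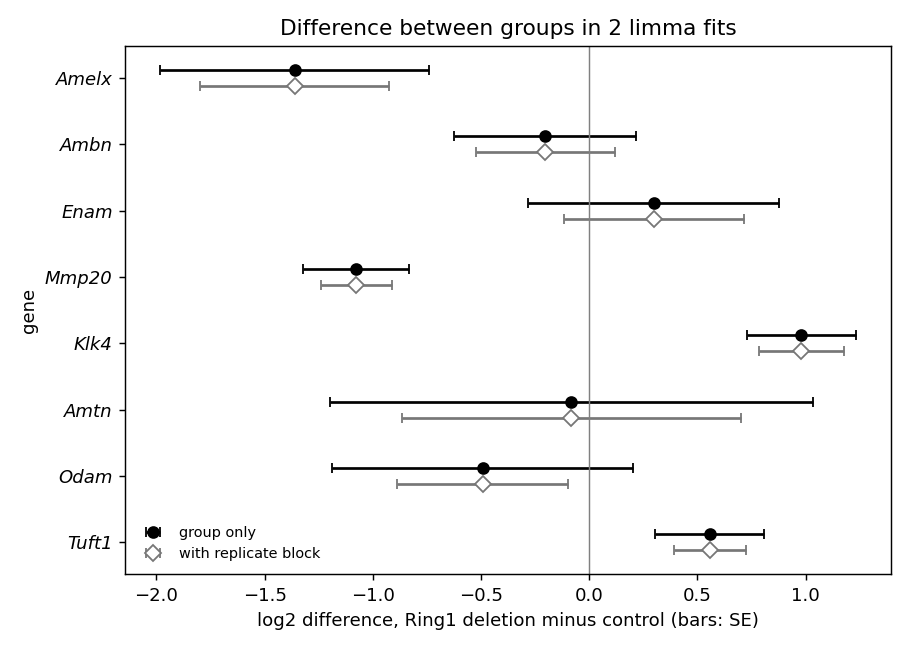
Log2 difference, Ring1 deletion minus control (horizontal axis), of the 8 tested genes (rows), with SE bars, from the limma fit on group alone (filled circles) and with the replicate block (open diamonds). Mmp20 at -1.08 and Klk4 at 0.98 stand on opposite sides of 0, and the error of Amtn, 1.11, is the widest of the 8.

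Signals of Amtn, Odam, Amelx and Enam were more widely scattered over the deletion arrays than over the control arrays. Over the 3 deletion arrays the SD of log2 signal was 2.80 for Amtn, 1.71 for Odam, 1.55 for Amelx and 1.45 for Enam. Over the 3 control arrays the SD was 0.75 for Amtn, 0.43 for Odam, 0.37 for Amelx and 0.34 for Enam. Among 10455 genes called Present on all 6 arrays, the deletion SD ranked 2nd for Amtn, 8th for Odam, 12th for Amelx and 13th for Enam. The ranks by control SD were 249 for Amtn, 1714 for Odam, 2366 for Amelx and 2771 for Enam. Ambn, with SDs of 0.85 in deletion and 0.60 in control, ranked 200 and 577 of the same genes. Mmp20, Klk4 and Tuft1 had deletion SDs of 0.46, 0.20 and 0.41, ranks 1829, 6741 and 2374. The median SD over these genes was 0.257 in deletion and 0.23 in control. Other genes of epithelium stood among them, with Cldn1 ranked 7th, Lama3 10th and Krt6a 11th by deletion SD, 3 genes picked after their values were seen. After scaling by the mean log2 level of 16 epithelial markers, the deletion SD was under the control SD for Amelx (0.65 against 0.78), Enam (0.55 against 0.79) and Ambn (0.08 against 0.93). For Amelx, Enam and Ambn the scaling also raised the control SD, which was 0.37, 0.34 and 0.60 before it. The deletion SD stayed above the control SD for Amtn (1.90 against 0.90) and Odam (0.83 against 0.34). Scaling raised the deletion SD of Mmp20 to 1.31, Klk4 to 0.87 and Tuft1 to 0.58, against control SDs of 0.85, 0.29 and 0.33. The difference in spread between the groups was not tested, and with 3 arrays a group an SD is itself poorly known.

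**Figure D3:**
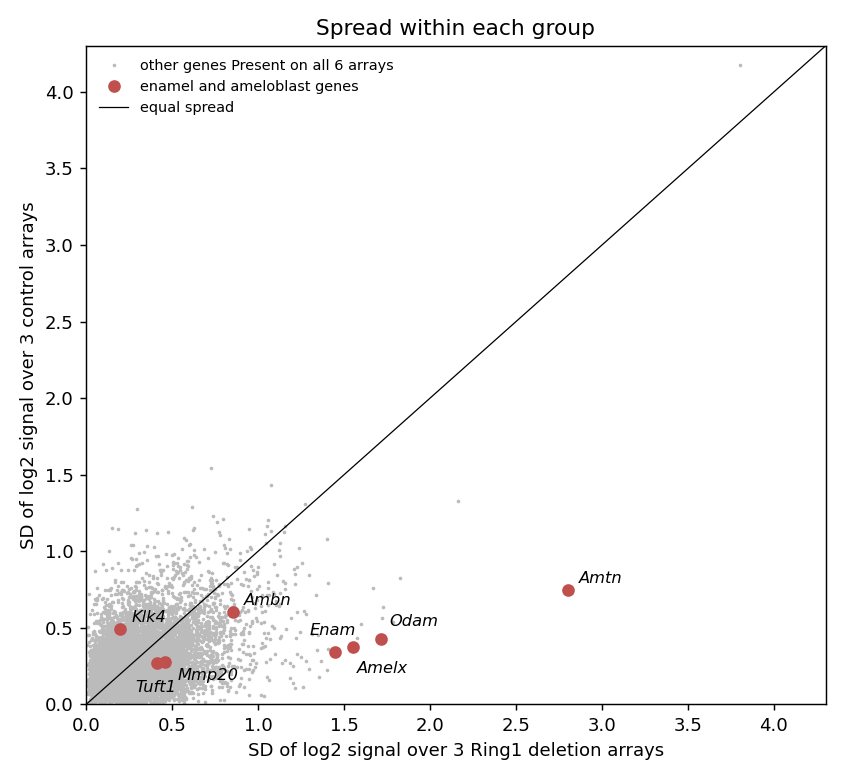
SD of log2 signal over the 3 Ring1 deletion arrays (horizontal axis) against the SD over the 3 control arrays (vertical axis), for genes called Present on all 6 arrays (grey) and the 8 tested enamel and ameloblast genes (red). Points right of the line of equal spread vary more between deletion arrays, as Amtn (2.80 against 0.75) and Odam (1.71 against 0.43) do.

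Amtn, Ambn and Enam are consecutive protein-coding genes on mouse chromosome 5 in the RefSeq gene table (GRCm38.p6), and Odam lies on the same chromosome with 7 protein-coding genes between it and Amtn. These 4 belong with amelogenin to the secretory calcium-binding phosphoproteins, a family that arose by gene duplication. Amelx lies on the X chromosome within Arhgap6. Arhgap6 had 115, 151 and 112 in deletion and 144, 64.4 and 65.3 in control, with its deletion arrays close together. Of 14 nearest neighbour genes that are not among the 9, 5 were tested, 0 changed in limma and 0 had an unadjusted p under 0.05.

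The sequences just before the start site are shown for the 5 genes of the phosphoprotein family, and for the pair of proteases. RefSeq promoters (GRCm38.p6) were found for 8 of the 9 genes, not for Tuft1. Each line gives the last 100 bases before the annotated start on the gene's strand, with GATTGG, which reads CCAATC on the other strand, and TATAAA in capitals. CCAAT is the core of the box bound by the factor NF-Y, and TATAAA is a TATA box sequence. The CCAATC motif was chosen after the sequences had been read.
Amelx, chrX:169187210-169187309, minus strand: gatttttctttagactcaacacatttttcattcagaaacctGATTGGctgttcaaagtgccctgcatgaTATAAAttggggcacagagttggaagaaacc
Ambn, chr5:88455891-88455990, plus strand: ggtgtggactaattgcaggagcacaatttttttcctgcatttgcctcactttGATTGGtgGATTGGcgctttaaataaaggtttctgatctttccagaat
Enam, chr5:88487875-88487974, plus strand: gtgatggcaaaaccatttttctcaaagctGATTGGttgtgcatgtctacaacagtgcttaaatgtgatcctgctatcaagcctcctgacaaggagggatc
Amtn, chr5:88376008-88376107, plus strand: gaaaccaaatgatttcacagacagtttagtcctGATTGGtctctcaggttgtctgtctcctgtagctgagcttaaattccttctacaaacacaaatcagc
Odam, chr5:87884910-87885009, plus strand: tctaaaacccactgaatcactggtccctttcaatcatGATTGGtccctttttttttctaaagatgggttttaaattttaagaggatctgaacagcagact
Mmp20, chr9:7628131-7628230, plus strand: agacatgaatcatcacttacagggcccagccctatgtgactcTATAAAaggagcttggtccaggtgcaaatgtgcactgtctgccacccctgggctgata
Klk4, chr7:43881060-43881159, plus strand: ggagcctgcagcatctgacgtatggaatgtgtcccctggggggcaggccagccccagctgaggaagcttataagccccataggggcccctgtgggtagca

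In Amelx, Ambn, Enam, Amtn and Odam this window holds CCAATC. Because the motif was picked from these sequences, its presence there is a description and no comparison with other genes. The match begins 59 bases before the start in Amelx, 71 in Enam, 67 in Amtn and 63 in Odam, and 48 and 40 in Ambn, which has it in duplicate. Searched on both strands, CCAATC occurs in the same 100 bases of 8.62% of 32851 RefSeq promoters, and the shorter CCAAT, which it contains, in 18.9%. TATAAA was found in Amelx and Mmp20, 31 and 58 bases before the start, and in 5.56% of all promoters. TGTGGT, a core sequence of Runx sites, was found in 0 of the 8 windows and in 5.61% of all. The 250 bases before the start held 0 to 2 CpG dinucleotides in 7 of the 8 genes and 11 in Slc24a4, against a median of 6 over all promoters. These matches describe the letters of the reference sequence, and binding was not measured here.

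The level of epithelial markers differed between arrays as well. Of 19 dental epithelium markers 17 were tested, all but Krt15, Cdh3 and Itgb4 were Present on every array, and none was listed at 0. The summed signal of the 17 was 26950, 46130 and 84990 on deletion replicates 1, 2 and 3 and 49520, 65040 and 85770 on control replicates 1, 2 and 3. This sum includes Shh, which was lower on every deletion array than on any control array. Without Shh, the mean log2 level of the other 16 was 9.52, 10.4 and 11.36 in deletion and 9.98, 10.63 and 11.17 in control. By that mean deletion replicate 3 was the highest of all 6 arrays. Deletion replicate 1 had the lowest sum, and Amelx, Ambn, Enam, Amtn and Odam had their lowest signal of all 6 arrays there. Deletion replicate 3 had the highest sum of the deletion arrays, and the highest signal of all 6 arrays for the same 5 genes. Among the control arrays, replicate 1 had the lowest sum and the lowest Amtn and Odam signals. Yet it had the highest control signals of Amelx, Ambn and Enam, at 56632, 47381 and 8459. The part of the epithelial share in the enamel gene signals was not tested by a fit. As a description added after seeing the data, signals were scaled by the mean log2 level of 16 epithelial markers, Shh left out. Scaled in this way, Klk4 had 12.16, 11.02 and 10.45 in deletion and 10.11, 10.34 and 9.75 in control on the log2 scale, a difference of 1.14. It stayed higher on all 3 deletion arrays, though deletion replicate 3 and control replicate 2 nearly met. Amelx had scaled log2 signals of 13.73, 13.97 and 14.95 in deletion and 16.32, 14.96 and 14.97 in control, no longer overlapping, though deletion replicate 3 and control replicate 2 nearly met. Mmp20 had 14.43, 12.70 and 11.85 in deletion and 14.72, 13.99 and 13.02 in control, now overlapping, with a difference of -0.92. Tuft1 overlapped as well after this scaling, with a difference of 0.72.

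**Figure D4:**
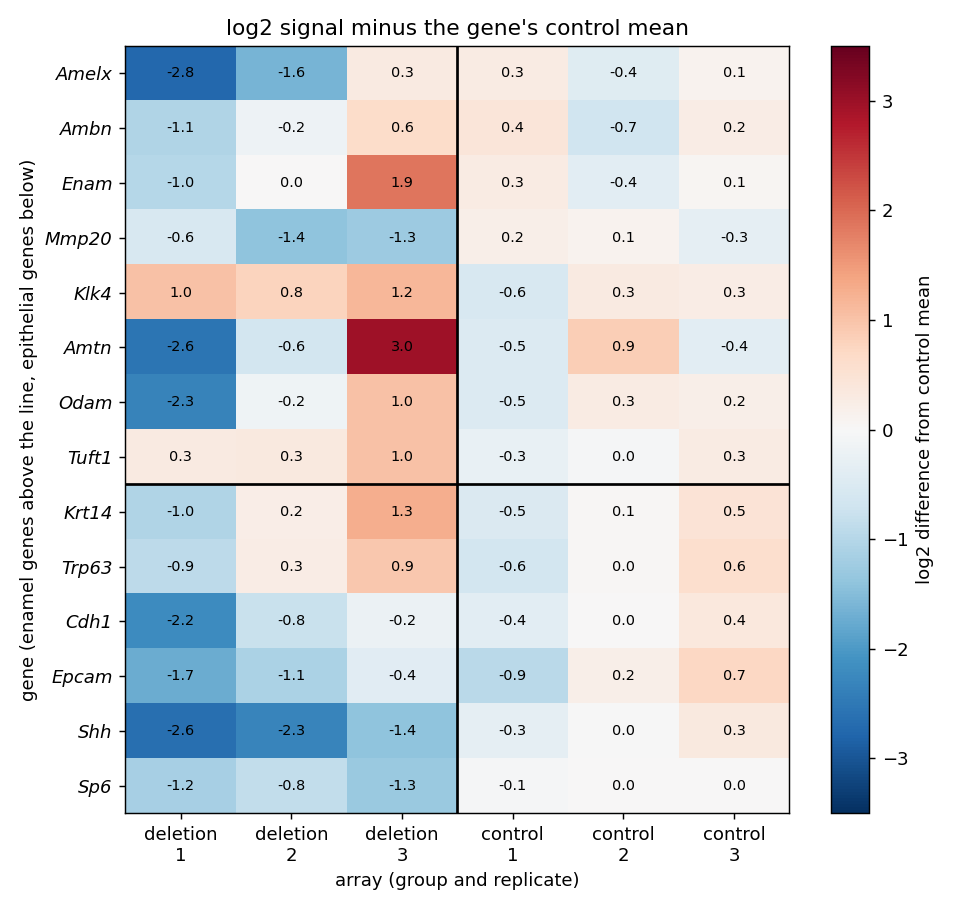
Log2 signal minus the gene's mean over the 3 control arrays (colour and printed values) for 8 enamel and ameloblast genes (above the line) and 6 epithelial genes (below) on each array, deletion arrays to the left. Amelx, Amtn and Odam are lowest on deletion replicate 1 (-2.75, -2.56 and -2.35), and Amtn is highest on deletion replicate 3 (2.96). Mmp20, Cdh1, Epcam, Shh and Sp6 are below their control mean on every deletion array. Krt14 and Trp63 are below theirs on deletion replicate 1 (-1.05 and -0.91) and above on the other deletion arrays.

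The 17 epithelial markers had a median log2 difference of -0.18. Of these 1 fell and 0 rose, against 0.759% and 1.89% of all genes tested. The one that fell was Shh, which encodes a secreted ligand of tooth epithelium, with 3118, 3949 and 7349.9 in deletion and 15606, 19141 and 24801 in control. Its log2 difference was -2.12 ± 0.31 (SE; limma adjusted p = 0.00931), against 0.15 ± 0.50 for Krt14 (limma adjusted p = 0.935). Cdh1 and Epcam, adhesion proteins of epithelial cells, differed by -1.06 ± 0.44 and -1.08 ± 0.43 (SE). Neither passed on group alone (limma adjusted p = 0.29 for Cdh1 and 0.271 for Epcam), and both fell once blocked by replicate (0.0114 and 0.00151). With each array left out in turn Cdh1 ranged over -1.49 to -0.49 and Epcam over -1.55 to -0.72, and Epcam was -0.58 with the mean of its probe sets. In that blocked fit 1 of the 17 epithelial markers rose and 5 fell, against 6.44% and 4.19% of all genes. The one that rose was Krt15, at 1.44 ± 0.98 (SE; limma adjusted p = 0.572 on group alone, or 0.00182 blocked by replicate). Of the 17 means, 7 were higher and 10 lower in deletion, against 6432 and 5818 of 12250 over all genes.

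The 15 tested transcription factors of ameloblasts had a median log2 difference of -0.11. Of these 1 fell and 0 rose, against 0.759% and 1.89% of all genes tested. That gene was Sp6, a zinc finger factor needed for ameloblast differentiation in mice, with 3077, 3829 and 2817.5 in deletion and 6645, 7018 and 7022.5 in control. All deletion arrays lay below all control arrays, at -1.10 ± 0.17 (SE) on the log2 scale, or 0.466 times the control signal (limma adjusted p = 0.0107). The call ended without control replicate 2 (limma adjusted p = 0.0759) and with the mean of its 2 kept probe sets (limma adjusted p = 0.052). Unadjusted p was under 0.05 for 5 of the 15 factors, against 15.2% of all genes. With the replicate block 4 of the 15 factors rose and 2 fell, against 6.44% and 4.19% of all genes. The 4 were Cebpa, Bcl11b, Trps1 and Runx1, and the 2 were Sp6 and Tbx1. On group alone those 4 differed by 1.06, 0.83, 0.70 and 0.68 log2 units (limma adjusted p = 0.0964, 0.215, 0.303 and 0.204). Tbx1 differed by -0.77 (limma adjusted p = 0.458).

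Of 16 tested genes of enamel ion transport 0 passed in limma, and the median log2 difference was 0.12. At an unadjusted p under 0.05 there were 2 of 16, against 15.2% of all genes. The smallest adjusted p values in that list were those of Atp2b4 and Cftr (limma adjusted p = 0.0586 for Atp2b4 and 0.073 for Cftr). Blocked by replicate, both passed, 2 of 16, against 10.6% of all genes. Cftr, a chloride channel, had 18.0, 21.0 and 71.4 in deletion with no Present call, and 197, 111 and 135 in control, Present on all 3. Atp2b4, a plasma membrane calcium pump, had 132, 109 and 205 in deletion and 45.2, 49.5 and 55.2 in control. Of 11 tested genes linked to hereditary enamel defects 0 passed in limma, on group alone or blocked, and 0 had an unadjusted p under 0.05. Their median log2 difference was -0.35, with 9 of 11 means lower in deletion, against 5818 of 12250 over all genes.

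The list of other calcium-binding phosphoproteins held genes of dentin and bone, the milk caseins, and Sparc and Sparcl1, which are relatives outside the family. Of 11 named on the array 5 were tested: Dspp, Dmp1, Ibsp, Sparc and Sparcl1. In limma 0 passed, and the median log2 difference was -0.01. At an unadjusted p under 0.05 there were 2 of 5, Ibsp and Sparcl1, against 15.2% of all genes. Ibsp, bone sialoprotein, had 2017, 8346 and 5861 in deletion and 1017, 1530.5 and 1289.5 in control. The groups did not overlap, and the log2 difference of 1.87 ± 0.44 (SE) had a limma adjusted p of 0.0642 (or 0.00122 blocked by replicate). Dmp1, a dentin and bone matrix gene, had 24475, 17424 and 8686 in deletion and 20701, 15552 and 14188 in control. Over the deletion arrays the order of Dmp1 was the reverse of that of Amelx, an order that Dspp, at 34716, 31975 and 45677, did not share. The milk caseins had too few Present calls to be tested. Markers of other cell types, not all of them cells of the pulp, gave 0 calls in limma on group alone, against 2.65% of all genes. At an unadjusted p under 0.05 there were 1 of 6 for odontoblasts, 2 of 3 for osteoblasts, 3 of 6 for pulp fibroblasts, 0 of 4 for endothelium, 1 of 5 for leukocytes, 0 of 1 for Schwann cells and 0 of 2 for muscle. The share over all genes at that unadjusted threshold was 15.2%. Blocked by replicate, 2 fibroblast markers rose (Col3a1 and Twist1), 1 osteoblast marker rose (Ibsp) and 1 fell (Ifitm5). Also 1 odontoblast marker fell (Nes), and the lists of the other cells had 0 calls. Over all genes 6.44% rose and 4.19% fell in that blocked fit. No erythroid marker could be tested, and some genes stand in more than 1 of these lists.

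The genes whose levels ran closest to Amelx over the 6 arrays were found by the root mean square difference of log2 signals after each gene's own mean was subtracted. Over the 12250 genes tested the nearest was Calb1, calbindin, a calcium-binding protein abundant in ameloblasts, at 0.388 log2 units, against a median of 1.18. Calb1 had 2875, 8874 and 17557 in deletion and 26835, 16235 and 13782 in control. Paqr5, 4930583I09Rik, Gng4, Ckmt1 and Spib followed at 0.415 to 0.445. By closeness to Amelx, Odam ranked 50th, Ambn 78th, Enam 207th, Mmp20 4785th, Amtn 5409th, Tuft1 6842nd and Klk4 11401st. The distances of Mmp20 and Amtn, 1.14 and 1.16, were near the median. Nearest to Odam were Cilp, Nppc, Grb7 and Arhgap22, at 0.169 to 0.303, none of them Present on all 6 arrays.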

How the data were processed

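RNA of mouse dental pulp was amplified, biotin-labelled and hybridised to Affymetrix arrays, 3 per group, per the labels' protocols. The deposited values are intensity signals on a linear scale made by the authors with MAS5, per the submitters' processing notes, and each array's trimmed mean (2% left off at each end) is 500. The software version is not given in the sources used here. Detection calls were read from the authors' workbook. Its headings match a group but no replicate number, so Present calls are counts per group. The headings of 2 columns in each group share a tag that the remaining column lacks. What it marks is not stated, and since these columns could not be tied to replicates, no fit by the tag was made and its part in the results was not tested. Beside the calls, 12 further columns with per-sample values stayed unused.

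Gene symbols were those of the platform annotation. Of 45101 probe sets, 34958 had 1 symbol, 932 had several and 9211 had none. Single-symbol probe sets called Present on 3 or more of the 6 arrays were kept (21614), and the one with the highest mean log2 signal stood for its gene (12250 genes). Signals were floored at 1, log2 transformed and fitted on group with limma 3.58.1 (R 4.3.3; lmFit and eBayes with an intensity trend), with Benjamini-Hochberg adjustment over all genes at 0.05. Alone, an exact permutation test of 3 against 3 arrays cannot go below p = 0.1. On simulated data with 12250 genes this fit recovered 28.8%, 79.1% and 92.5% of genes changed by 1, 2 and 3 log2 units. The simulated noise was independent between genes and arrays, with no effect shared by an array. These rates are averages over randomly chosen genes and do not hold for genes as scattered as Amelx, Enam, Amtn and Odam.

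Replicate numbers come from the sample titles. The labels do not state that same-numbered arrays are pairs. After group means were removed, same-numbered arrays correlated at r = 0.485, 0.189 and 0.286 for replicates 1, 2 and 3. Deletion replicate 2 correlated more with control replicate 3 (0.213). The replicate 1 arrays, with the highest r, also had the highest 3' to 5' ratios, and the part of these ratios in r was not tested. The block is therefore an assumed pairing, and p-values of the blocked fit hold only if that pairing is real. Precision is limited by the number of arrays. The genes, the 13 other gene lists and the tests were chosen with earlier results of these data known. Genes named outside the 9 were up to 4 of each list with the smallest p, the markers Krt14, Cdh1, Epcam, Trp63, Shh, Dspp, Dmp1 and Ibsp, neighbours in the RefSeq table, and the 6 genes nearest to Amelx and 4 nearest to Odam in pattern. Rnf2, Xist and Eif2s3y were added as checks after their values were seen. Krt15, Trps1 and Tbx1 are named because the blocked fit called them. Alternatives covered scaling, filters, probe set choice, array weights, the block and left-out arrays.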

Additional observations from a re-analysis of the deposited data

How the results depend on the processing

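With 3 arrays a group, small changes are often missed, and Slc24a4 lay below detection. Over 17 settings per gene, Amelx, Mmp20, Klk4 and Tuft1 kept their sign, and over the 15 genes refitted under every setting 225 of 255 values kept sign and side of the threshold. Other genes given with values were not refitted. Genes changed numbered 325, against 204 with Present calls on all 6 arrays, 1106 with array quality weights, 500 without both replicate 1 arrays and 94 to 300 with 1 array left out. With the replicate block, an assumed pairing, the count was 1302. Enamel genes changed numbered 0, against 2 with weights, 2 with the replicate block, 1 without both replicate 1 arrays, and 0 to 1 with 1 array left out. Signs turned for Ambn (0.43 with weights, 0.45 without both replicate 1 arrays), Amtn (0.92) and Odam (0.19, both without those arrays). Amtn also turned, to 0.0793, when scaled by the dental epithelium list, a setting added after seeing the data. With 1 array left out, Amelx ranged over -2.20 to -0.67, Ambn -0.62 to 0.23, Enam -0.48 to 0.94, Amtn -1.60 to 1.16, Odam -1.25 to 0.44 and Krt14 -0.41 to 0.75. Their lowest values came without deletion replicate 3 and the highest without deletion replicate 1. The causes were not tested. Detection filters were kept when an array was left out, since the calls carry no replicate number.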
